A study of Mus musculus with 16 samples.

Results

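The genes described here are the mouse histone genes whose symbols follow the cluster naming of replication-dependent histones. They were taken from the deposited count table by name: Hist, a cluster number from 1 to 4, a lower-case h with the histone type (1 for the linker histone, 2 to 4 for the core histones), then letters and any final digits. The rule found 67 of the 48709 genes in the table. By type these were 6 genes for the linker histone H1, 20 for H2A, 18 for H2B, 12 for H3 and 11 for H4. By the cluster number in the symbol 56 belonged to Hist1 on chromosome 13, 9 to Hist2 on chromosome 3 and 2 to Hist3 on chromosome 11. Of the Hist1 genes, Hist1h2al lies apart at chr13:51202688-51203065, and the others lie between bases 21715763 and 23934851. The H4 genes Hist2h4 and Hist4h4 carry no letter after the type and fell outside the rule.

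RNA was sequenced from synaptosomes (SYN), nerve terminals torn from their axons that seal up again and can be purified, from the cerebral cortex of C57BL/6 mice. Mice were 3 weeks, 5 months or 19 months old, with 4 biological replicates per age. Total homogenate (TH), cortex kept before the enrichment, was sequenced for 4 replicates at 5 months only. All 16 libraries were made from total RNA depleted of cytosolic rRNA, without selection for poly(A) tails, so transcripts with and without a tail could both be read. The sources used here do not give the sex of the mice or whether a replicate was 1 mouse or a pool, so p-values measure the spread between these libraries. SYN and TH exist together at 5 months alone, and no TH was sequenced at the other ages here.

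Core histones H2A, H2B, H3 and H4 form the protein spool around which DNA is wrapped, and H1 binds the linker DNA where it enters and leaves the spool. Replication-dependent genes are intronless, lie in clusters and are transcribed mainly in S phase, when new DNA has to be packaged. Their mRNAs usually end in a conserved stem-loop bound by the protein SLBP instead of a poly(A) tail, whereas replacement histones such as H3.3 come from ordinary polyadenylated mRNAs made throughout life, which non-dividing cells such as neurons use.

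The stem-loop was searched for in the 150 bases after the stop codon of each member's GENCODE vM21 transcript, to see which genes carry the defining signal of the family. A match was a 16-base hairpin of 6 paired bases, starting GG and ending CC, with a 4-base loop that starts with T and has T or C at its position 3. It was found in 44 of the 67 members, against 40 of 18973 other coding genes (0.211%). In 19 members fewer than 60 bases are annotated after the stop, and 2 members (Hist1h2aj and Hist1h2al) are annotated as pseudogenes. The search found no match in the window of 2 members with a longer annotated end, Hist1h2bc and Hist2h2be. The forms are shown because they split by histone type (5′ to 3′, loop in capitals, with an example gene and its position on GRCm38).
Hist1h1e, chr13:23621782-23621797, minus strand: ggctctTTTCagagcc
Hist2h2ac, chr3:96220418-96220433, minus strand: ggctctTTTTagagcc
Hist1h4d, chr13:23581950-23581965, plus strand: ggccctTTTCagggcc
Hist1h4j, chr13:21735437-21735452, plus strand: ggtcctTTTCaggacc
The stem ggctct was present in 34 of 34 stem-loops of H1, H2A, H2B and H3 genes. The 10 stem-loops of H4 genes had ggccct (8 genes) or ggtcct (2 genes). The form of Hist1h1e was the most frequent, in 26 members.

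All 16 libraries held 43280 counts of the 67 members, between 1679 and 4258 per library, in libraries of 10640232 to 21719869 counts. Levels are given as CPM, counts per 1000000 counts of library size, the size being scaled by TMM (trimmed mean of M-values) over all 16 libraries. At these depths 3 counts correspond to 0.0996 to 0.277 CPM, and these limits cover counting error only. No count fell on 4 members in any library (Hist1h2aa, Hist1h2ba, Hist2h2aa1 and Hist2h3c1). Another 18 members had 1 to 50 counts over all libraries, 45 had more than 50 and 9 more than 1000. The filter on low counts left 28 members for the test of SYN against TH and 30 for the tests between ages, and 36 members passed in neither. The tested members were 5 H1 genes in both fits, 6 and 8 H2A, 7 and 8 H2B, 3 and 2 H3, and 7 and 7 H4 genes. A gene that is high in 1 group alone can pass the filter through that group, so the tested genes do not stand for all 67.

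The libraries differed in ways that bear on these values. Mitochondrial rRNA took 32.9 to 52.3% of the counts in SYN and 17.6 to 22% in TH. TMM scaling adjusts for such shifts in composition. The nuclear RNA Malat1 had 4820 CPM in replicate 4 of 5 months SYN, where the other 3 libraries had 947 to 1460 CPM, and mitochondrial rRNA was highest (52.3%) in 19 months SYN replicate 1. The count calls below were therefore also made without these 2 libraries. As a check of the fraction, 8 nuclear noncoding RNAs summed to 20300 to 24300 CPM in TH and 1600 to 6770 CPM in 5 months SYN, while the synaptic vesicle gene Syp was at 297 to 463 CPM in TH and 956 to 1110 CPM in 5 months SYN.

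Members of 1 type share much of their sequence, which limits how counts can be assigned. Among coding sequences of equal length, identity ran from 77.6 to 100% for H2A, 82.9 to 100% for H2B, 93.7 to 99.8% for H3 and 92.3 to 100% for H4. In all, 4 pairs have identical coding sequences: Hist1h2ao with Hist1h2ap, Hist2h2aa1 with Hist2h2aa2, Hist1h2bq with Hist1h2br, and Hist1h4m with Hist1h4n. The share of 50-base windows of a coding sequence found in no other annotated gene had a median of 89% for H1 (73.6 to 100%), 28.5% for H4, 20.2% for H2B, 16.1% for H2A and 15.3% for H3. In 19 members it was under 10%. Counts of members with few such windows are uncertain, since the count columns are named as unique alignments and reads that fit several genes may then be missing.

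**Figure D1:**
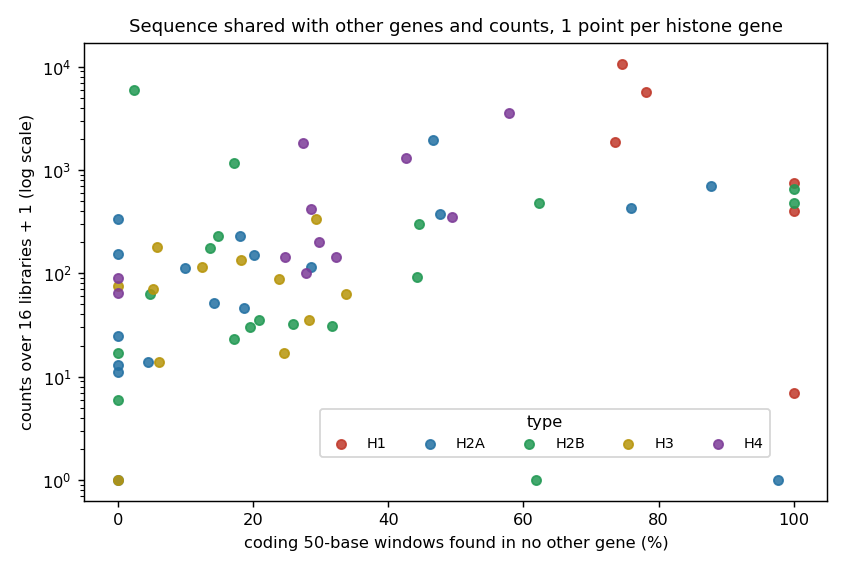
Counts over all 16 libraries plus 1 (vertical, log scale) against the percentage of coding 50-base windows found in no other annotated gene (horizontal), 1 point per histone gene with a coding sequence and coloured by type. H1 genes sit at 73.6% and above, H3 genes at 33.7% and below, and genes with a share of 0 have under 1000 counts.

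Per kilobase of exon, the 8 members with the highest mean level over the 16 libraries came from 4 types. Hist1h1e, the gene of linker histone H1f4, led with 56.3 CPM per kilobase, followed by Hist1h4d (H4) with 34.7 and Hist1h2bc (H2B) with 32.9. Hist1h4h (H4) had 14.9, Hist1h1c (linker histone H1f2) 14.4, Hist2h2ac (H2A) 13.6, Hist1h4c (H4) 12.1 and Hist1h1d (linker histone H1f3) 9.99 CPM per kilobase. No H3 gene was among them. Counts were concentrated in few members: Hist1h1e held 24.8% of all member counts and the top 5 members 64.6%.

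The summed level of the family differed between the ages, and most of that difference in counted reads lay in H1. The types may not be counted equally well, since the median share of coding windows found in no other gene was 89% for H1 and 15.3 to 28.5% for the core types. How far this shapes the sums and shares by type was not tested. All 67 members summed to 204 to 245 CPM in the 4 libraries of 3 weeks SYN (225 ± 21, mean ± SD, n = 4). The range was 137 to 160 CPM at 5 months (149 ± 11.6) and 155 to 178 CPM at 19 months (165 ± 9.98). On the TMM scale every 3 weeks library therefore lay above every library of the later ages, while the 5 months and 19 months ranges overlapped. With plain total counts the 3 weeks and 19 months ranges overlapped too. There, 3 weeks replicate 2 held 3219 member counts of 20389368, and 19 months replicate 2 held 2382 of 14218831. H1 genes summed to 102 to 139 CPM at 3 weeks, 56.7 to 72.5 CPM at 5 months and 54.4 to 76.6 CPM at 19 months. Their share of the family's summed CPM was 52.8% ± 3.38 at 3 weeks, 43.6% ± 3.98 at 5 months and 40.6% ± 3.82 at 19 months.

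The core types were not ordered in the same way. H4 genes summed to 26.3 to 33.6 CPM at 3 weeks, 20.5 to 32.2 CPM at 5 months and 33.6 to 40 CPM at 19 months, so 19 months SYN stood above all 5 months libraries. H2B genes summed to 43.4 to 53.7, 34.7 to 41.2 and 40.4 to 44.5 CPM at the 3 ages in that order, and H2A genes to 18.4 to 32.4, 11.3 to 20.9 and 13.2 to 17 CPM. H3 genes were the lowest type in counted reads, with 3.92 to 6.34, 3.29 to 4.4 and 3.04 to 4.85 CPM, and their ranges overlapped at all ages. They also had the lowest median share of coding windows found in no other gene (15.3%). By cluster, Hist1 genes held 92.2% ± 1.07 of the family's CPM at 3 weeks and 86.5% ± 1.89 at 5 months. Hist2 genes summed to 11.1 to 17 CPM at 3 weeks and 13.1 to 22.7 CPM at 5 months, ranges that overlapped.

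**Figure D2:**
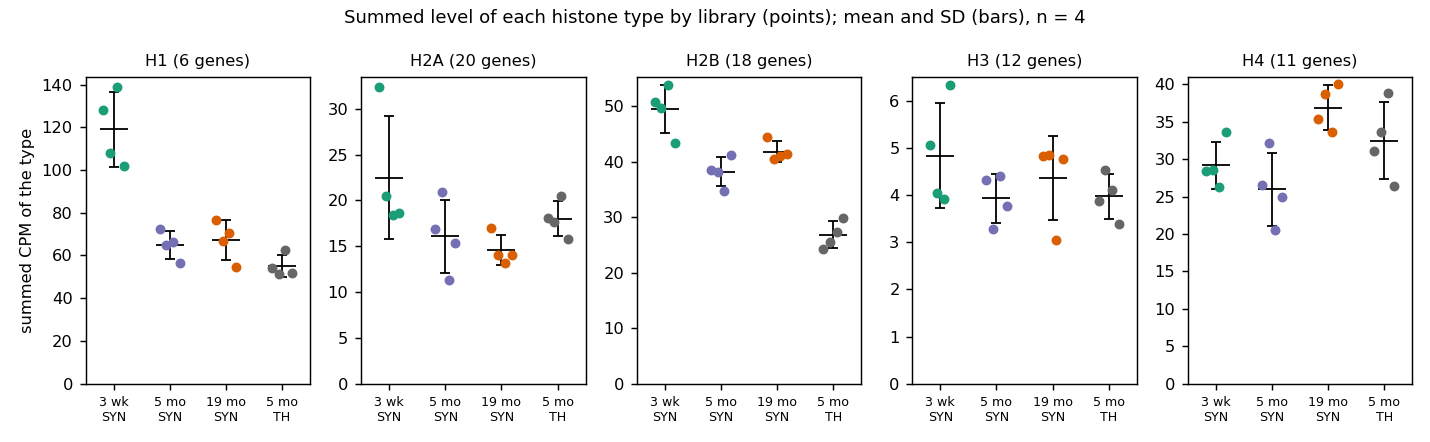
Summed CPM of each histone type (vertical, separate scale per panel, from 0) in 4 groups of 4 libraries (points), with mean and SD (bars). On the TMM scale H1 at 3 weeks (102 to 139 CPM) lies above all other libraries, whereas H3 overlaps between all groups. With plain total counts the H1 means were 92.1 CPM at 3 weeks and 87.2 CPM in TH.

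In TH the 67 members summed to 127 to 153 CPM (136 ± 11.6), overlapping 5 months SYN. The order of these 2 groups depended on the scaling: with plain total counts the means were 216 CPM in TH and 131 CPM in 5 months SYN. H2B genes were at 24.2 to 29.8 CPM in TH, below all 5 months SYN libraries, but this order also turned with plain total counts (means of 42.4 CPM in TH and 33.8 CPM in 5 months SYN). The Hist3 genes were at 5.57 to 5.87 CPM in TH and 2.12 to 4.39 CPM in 5 months SYN. H1 genes summed to 51.4 to 62.4 CPM in TH and H4 genes to 26.4 to 38.9 CPM, both overlapping 5 months SYN.

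The comparison of 5 months with 3 weeks SYN asks how the synaptosomal RNA of juvenile cortex differs from that of the adult. Of the 30 members tested, 8 were lower and 1 was higher at 5 months (edgeR quasi-likelihood test, Benjamini-Hochberg adjusted p under 0.05). Over all genes tested 11.3% were lower and 13.3% higher, 24.6% in either direction, against 26.7% of the members lower. The lower members were all 5 tested H1 genes, 2 H2B genes and 1 H2A gene. None of the 7 tested H4 and 2 tested H3 genes was called. The median log2 fold change was -1.41 for the H1 genes, -0.50 for H2B, -0.51 for H2A and -0.12 for H4, and 0 over all genes. Groups did not overlap in 9 members, against 22.7% of all genes tested.

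The linker histone genes were lower at 5 months by different amounts. Hist1h1e (chr13:23621755-23622502) had 71.8, 56.5, 76.1 and 51.2 CPM in the 3 weeks replicates and 46.2, 38.3, 31.8 and 24 CPM in the 5 months replicates. Every 3 weeks library was above every 5 months library, and the log2 fold change was -0.85 (SE 0.179, adjusted p = 0.00203, edgeR). Hist1h1c (chr13:23738808-23740367) had 32.8, 30.5, 37.6 and 29.6 CPM at 3 weeks and 20.3, 19.9, 23.1 and 26.2 CPM at 5 months. The groups again stood apart, with a log2 fold change of -0.53 (SE 0.125, edgeR adjusted p = 0.00274), the smallest of the 5 H1 genes.

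Hist1h1d, Hist1h1a and Hist1h1b were the H1 genes with the larger differences. Hist1h1d (chr13:23555087-23555830) had 15.3, 12.5, 16.2 and 12.7 CPM at 3 weeks against 3.3, 4.19, 8.07 and 4.3 CPM at 5 months. The highest adult library, replicate 3, remained below the lowest juvenile one, and the log2 fold change was -1.50 (SE 0.229, edgeR adjusted p = 2.16e-05). Hist1h1a (chr13:23763717-23764358), the gene of linker histone H1f1, had 4.73, 4.84, 6.41 and 4.79 CPM at 3 weeks and 1.88, 1.65, 2.37 and 1.85 CPM at 5 months, again without overlap. Its log2 fold change was -1.41 (SE 0.304, edgeR adjusted p = 0.00112). Hist1h1b (chr13:21779883-21780625), the gene of linker histone H1f5, had 3.51, 3.33, 2.89 and 3.66 CPM at 3 weeks and 0.785, 1.05, 0.734 and 0.239 CPM at 5 months. This was the largest difference among the H1 genes, at -2.25 on the log2 scale (SE 0.409, edgeR adjusted p = 0.000194). Its size depends on few counts at 5 months: in replicate 4, 3 counts correspond to 0.179 CPM. Hist1h1t, the testis H1 gene, had too few counts to be tested.

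**Figure D3:**
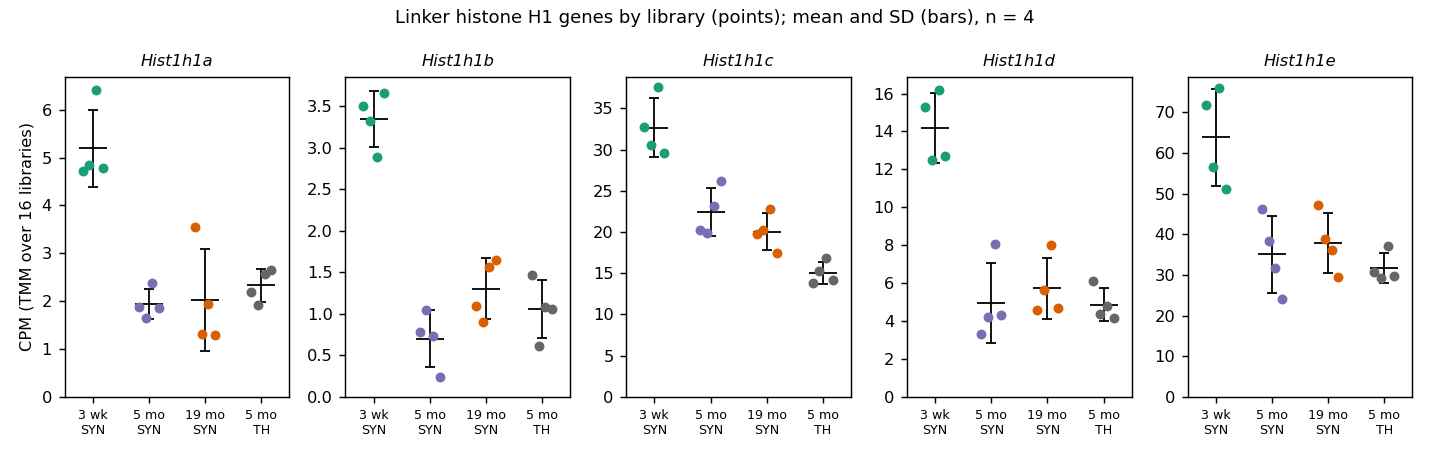
CPM of the 5 tested H1 genes (vertical, separate scale per panel, from 0) in 4 groups of 4 libraries (points), with mean and SD (bars). On the TMM scale the 3 weeks libraries lie above all 5 months and 19 months SYN libraries in each panel. On that scale Hist1h1c is also above TH in 5 months SYN.

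The promoters of the members were also compared for shared elements, as a description of their sequences. RefSeq promoters (GRCm38.p6, 250 bases before to 50 after the start) were matched for 60 of the 67 members. The 3 elements searched for, on both strands, were AAACACA, known from H1 promoters, the CCAAT box, and the TATA element TATAAA. The first, AAACACA, was present in 5 of 6 H1 promoters, 2 of 17 H2A, 2 of 16 H2B, 0 of 10 H3 and 0 of 11 H4 promoters, against 7.18% of all 32851 promoters. CCAAT was present in every H1, H2A, H2B and H3 promoter matched and in 3 of 11 H4 promoters (37.4% of all promoters), and TATAAA in 35 of the 60 (13.6% of all). The 130 bases before the start are shown for the 5 tested H1 genes, 5′ to 3′ on the gene's strand, with these letters or their reverse complement in capitals.
Hist1h1a, chr13:23763538-23763667, plus strand: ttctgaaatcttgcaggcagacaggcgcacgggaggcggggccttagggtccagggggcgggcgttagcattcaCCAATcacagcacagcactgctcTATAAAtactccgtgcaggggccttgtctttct
Hist1h1b, chr13:21780626-21780755, minus strand: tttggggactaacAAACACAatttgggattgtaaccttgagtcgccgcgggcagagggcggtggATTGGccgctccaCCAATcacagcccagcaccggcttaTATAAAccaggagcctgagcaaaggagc
Hist1h1c, chr13:23738677-23738806, plus strand: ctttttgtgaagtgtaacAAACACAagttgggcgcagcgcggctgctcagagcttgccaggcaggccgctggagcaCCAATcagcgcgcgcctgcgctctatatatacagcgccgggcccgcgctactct
Hist1h1d, chr13:23554902-23555031, plus strand: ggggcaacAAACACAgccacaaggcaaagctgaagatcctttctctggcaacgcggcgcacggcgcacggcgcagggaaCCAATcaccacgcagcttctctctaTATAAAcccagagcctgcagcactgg
Hist1h1e, chr13:23622559-23622688, minus strand: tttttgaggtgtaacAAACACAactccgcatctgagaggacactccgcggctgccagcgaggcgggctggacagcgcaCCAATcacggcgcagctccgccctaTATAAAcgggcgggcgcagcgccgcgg
CCAAT began 56 bases before the start in Hist1h1a, 54 in Hist1h1c, 51 in Hist1h1d and 52 in Hist1h1e. AAACACA began 117, 112, 122 and 115 bases before the start in Hist1h1b, Hist1h1c, Hist1h1d and Hist1h1e, and was not among the letters of the Hist1h1a window, although that gene was lower at 5 months as well. A match describes these letters and shows no binding. AAACACA was chosen because it is known from H1 promoters, so its presence there is no separate result. Whether these elements bear on the age difference was not tested.

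Among the core histones, 4 of the 25 tested genes (16%) were called between 3 weeks and 5 months, beside 24.6% of all genes tested. The gap between these shares was not tested, and members were not compared with genes of like counts. Hist1h2ak (H2A, chr13:21753435-21753827) had 7.34, 3.73, 4.09 and 0.915 CPM at 3 weeks and 0.392, 1.12, 0.245 and 0.538 CPM at 5 months. The juvenile replicate 4 lay within the adult range, so the groups overlapped, and the log2 fold change was -2.76 (SE 0.506, edgeR adjusted p = 0.000228). Its size depends on few counts at 5 months, where the 0.245 CPM of replicate 3 equals 3 counts. A gene on the opposite strand at this locus, Gm44454, had 1 count in all 16 libraries. Of the coding windows of Hist1h2ak, 47.7% occur in no other gene.

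Hist3h2ba (H2B, chr11:58948920-58949533) had 2.69, 3.4, 2.67 and 2.67 CPM at 3 weeks and 0.942, 0.748, 1.39 and 0.896 CPM at 5 months. The groups stood apart, with a log2 fold change of -1.51 (SE 0.371, edgeR adjusted p = 0.00371). Hist1h2bc (H2B, chr13:23684199-23692488), which has 2 exons in vM21 and only 2.4% of its coding windows to itself, had 33.8, 32.4, 36.4 and 26.5 CPM at 3 weeks and 24.8, 24.2, 23 and 23.8 CPM at 5 months. It was lower by a small margin in every adult library, with a log2 fold change of -0.41 (SE 0.113, edgeR adjusted p = 0.00781).

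Hist2h2be (H2B, chr3:96221119-96223738) was the 1 member that was higher at 5 months. This gene encodes an H2B isoform known from sensory neurons of the nose, and its coding windows are all found in no other gene (100%). It had 1.47, 2.16, 2.21 and 1.55 CPM at 3 weeks and 4.47, 3.29, 2.94 and 3.17 CPM at 5 months. All adult libraries were above all juvenile ones, and the log2 fold change was 0.91 (SE 0.283, edgeR adjusted p = 0.0192). The call was lost without 3 weeks replicate 1 (adjusted p = 0.0511), 3 weeks replicate 4 (0.0548) or 5 months replicate 1 (0.0648), while the log2 fold change stayed between 0.77 and 1.01 over 22 alternatives.

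The most abundant uncalled members were H4, H2A and H2B genes. Hist1h4d (chr13:23581598-23581990) had 12.9, 14.4, 11.1 and 14 CPM at 3 weeks and 13.7, 14.7, 7.83 and 10.3 CPM at 5 months, overlapping groups with a log2 fold change of -0.16 (interval of 2 SE, -0.50 to 0.19). Hist1h4h had a log2 fold change of 0.20 (-0.23 to 0.64), Hist2h2ac 0.43 (-0.04 to 0.90) and Hist1h2be 0.19 (-0.34 to 0.72). A fall as large as that of Hist1h1c lay outside all 4 intervals, and 1 as large as that of Hist1h2bc lay inside the interval of Hist1h4d. All 6 tested Hist2 genes had a log2 fold change above 0 (0.01 to 0.91), and 18 of the 22 tested Hist1 genes had one below 0.

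**Figure D4:**
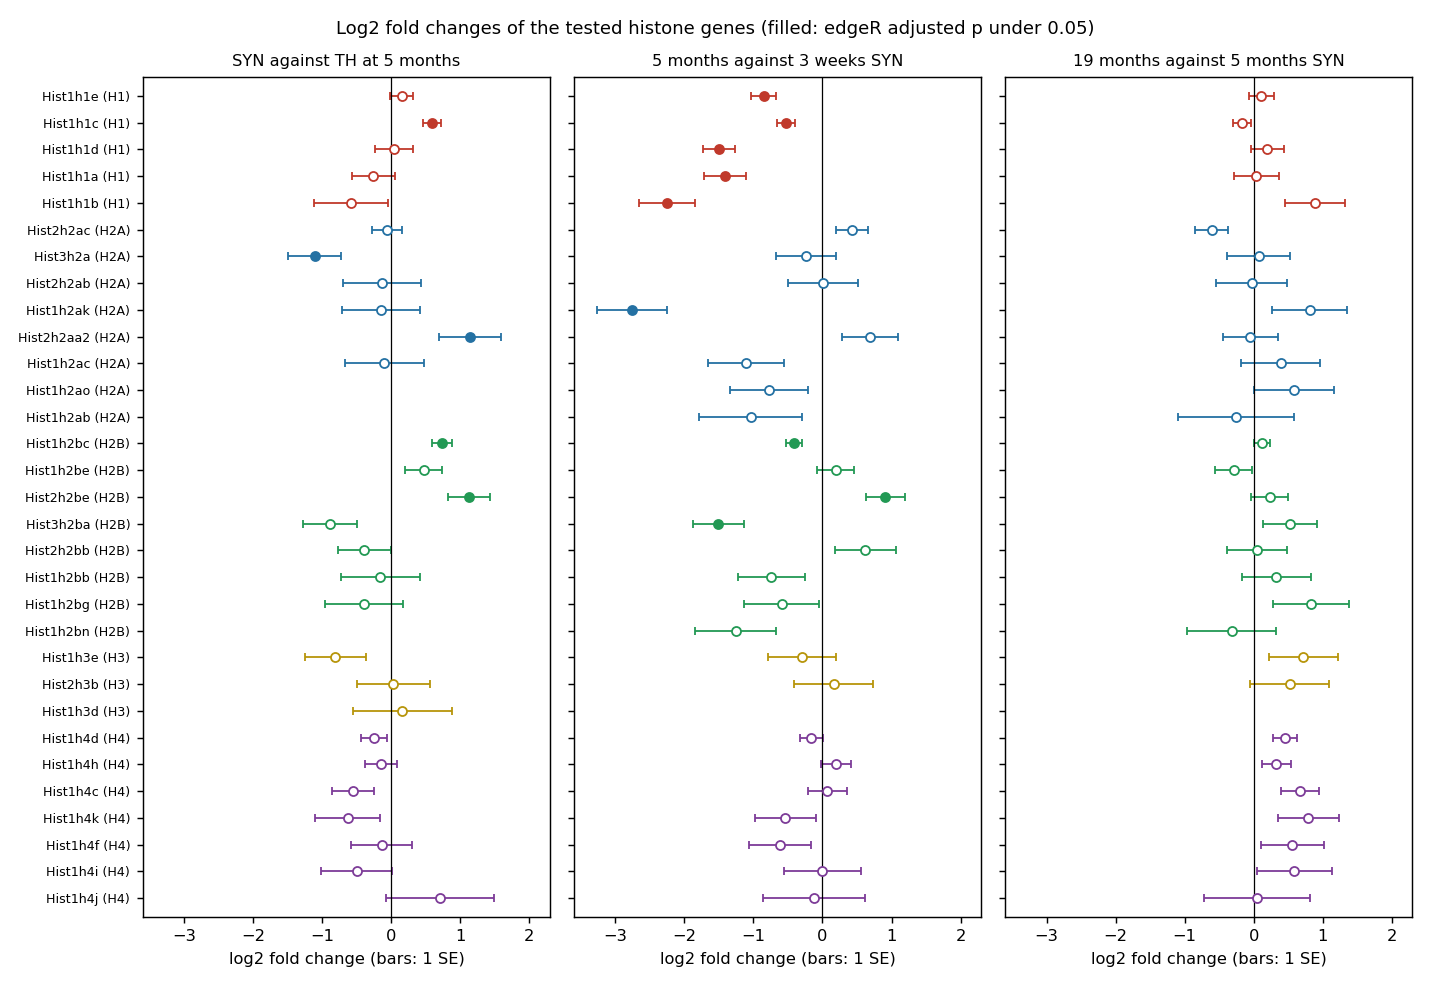
Log2 fold changes (horizontal, bars 1 SE) of tested histone genes, grouped by type and coloured as such, in 3 comparisons. Filled points passed an edgeR adjusted p of 0.05: all 5 H1 genes are filled on the left of 0 at 5 months against 3 weeks, and no point is filled at 19 months against 5 months.

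The same samples held other differences between 3 weeks and 5 months beside those of H1. Of 17 tested genes of DNA replication and mitosis, 4 were lower and 0 higher (median log2 fold change -0.57), and 13 were not called. The share called lower was 23.5%, beside 11.3% of all genes lower and 24.6% called in either direction. Mki67, a nuclear protein of cycling cells, was at 13.2 ± 2.39 CPM at 3 weeks and 1.6 ± 0.601 CPM at 5 months (log2 fold change -3.02, edgeR adjusted p = 5.76e-09). The other 3 were Top2a, the topoisomerase that untangles chromosomes (-2.82), Rrm2, a ribonucleotide reductase subunit (-2.54), and Cenpf, a kinetochore protein (-2.25). The 25 genes of that list summed to 74.1 to 92.3 CPM at 3 weeks and 42.2 to 47.9 CPM at 5 months.

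Markers of oligodendrocyte precursors, a cell type that divides in the young cortex, were lower as well. Of these markers 9 of 10 were called lower and 0 higher (median log2 fold change -0.72, range -2.93 to -0.38). They summed to 399 to 448 CPM at 3 weeks, 174 to 192 CPM at 5 months and 173 to 208 CPM at 19 months. Gpr17, a receptor of precursors on the way to myelination, fell by 2.23 on the log2 scale (edgeR adjusted p = 4.91e-14), and Enpp6, a marker of newly forming oligodendrocytes, by 2.93. Microglial markers had 4 of 10 genes higher at 5 months, led by Itgam and Ctss, and 0 lower. Among 8 nuclear noncoding RNAs 5 were higher at 5 months and 0 lower (median log2 fold change 1.39), with Meg3 at 2.27 (edgeR adjusted p = 0.00645) and Malat1 at 1.90 (edgeR adjusted p = 0.0193). They summed to 879 to 1190 CPM at 3 weeks and 1600 to 6770 CPM at 5 months, the highest value being that of replicate 4. Endothelial markers had 3 of 8 tested genes higher and 0 lower (Flt1 1.56, Slco1a4 1.22 and Kdr 1.04), although the list's sums overlapped, at 14.8 to 18.3 CPM and 13.8 to 43.6 CPM. Without replicate 4 of 5 months SYN, Flt1 (edgeR adjusted p = 0.0688) and Slco1a4 (0.152) lost their calls and Meg3 kept it. Malat1 lost its call without 3 weeks replicate 2 or 3 (edgeR adjusted p = 0.0538 and 0.0564) and Kdr without 3 weeks replicate 3 or 4 (0.0849 and 0.0573). Without replicate 4 of 5 months SYN the 5 H1 genes were still called lower, with log2 fold changes from -1.94 to -0.62. The part of these cell types and of nuclear RNA in the H1 values was not tested, and in such bulk fractions fewer cells of a type and less RNA per cell cannot be told apart.

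The list of replacement and variant histone genes also included lower genes at 5 months. Of 11 tested, 6 were lower and 0 higher, with a median log2 fold change of -0.46. H3f3a, 1 of the genes for the replacement histone H3.3, was at 22.2 ± 3.04 CPM at 3 weeks and 9.9 ± 2.49 CPM at 5 months (log2 fold change -1.15, edgeR adjusted p = 1.91e-05). H3f3c, a near relative of it, had -1.29 and H2afx, the variant phosphorylated at DNA breaks, -0.55. H1f0, the replacement linker histone of non-dividing cells, had 59.1, 57.9, 63.8 and 53.8 CPM at 3 weeks and 41, 40.5, 41 and 38.8 CPM at 5 months (log2 fold change -0.52, SE 0.107, edgeR adjusted p = 0.000691). Its groups stood apart, as did those of the 5 clustered H1 genes.

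The machinery that makes and destroys histone mRNA showed no common direction. Of 16 tested genes for histone gene transcription and 3′-end processing, 2 were higher and 3 lower at 5 months. Lsm11, a subunit of the U7 particle that positions the 3′ cut, was at 29 ± 3.37 CPM at 3 weeks and 13.4 ± 4.2 CPM at 5 months (log2 fold change -1.10, edgeR adjusted p = 7.52e-05). Cpsf2, a subunit of the cleavage complex, had -0.36, whereas Srrt, a partner of the cap-binding complex, had 0.53 and Fip1l1, a poly(A) factor, 0.37. The call of Cpsf2 was lost in 5 of 22 alternatives (edgeR adjusted p up to 0.0779), among them those without 3 weeks replicate 2 or 3 or 5 months replicate 2 or 4. That of Fip1l1 was lost in 4 of 22 (up to 0.114), among them those without 3 weeks replicate 2 or 3 or 5 months replicate 1. Of 9 histone mRNA decay genes 3 were higher and 0 lower: the decapping enzyme Dcp2 (0.49), the helicase Upf1 (0.44) and the uridylyltransferase Zcchc11 (0.36), whose call was lost without 3 weeks replicate 2, 3 or 4 (edgeR adjusted p up to 0.0766). Of 18 tested histone chaperones 4 were higher and 2 lower. The higher ones were Supt16, a FACT subunit (0.48), Anp32e, which removes H2A.Z (0.45), Ubn2, of the H3.3 chaperone HIRA (0.40), and Hjurp, which loads the centromeric H3 (0.50). The Hjurp call was lost in 4 of 22 alternatives (edgeR adjusted p up to 0.0822), among them those without 3 weeks replicate 2 or 5 months replicate 3 or 4.

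The libraries of SYN and TH at 5 months allow the nerve terminal fraction to be set against whole cortex. Of the 28 members tested, 4 were higher and 1 lower in SYN (17.9%), against 50.1% of all 17374 genes tested in either direction, 24.5% higher and 25.6% lower. Groups did not overlap in 7 members, against 47.9% of all genes. The share of members called was thus below that of all genes, but members were not compared with genes of like counts. The higher ones were 2 H2B genes, 1 H2A and 1 H1 gene. None of 7 tested H4 and 3 tested H3 genes was called. The median log2 fold change was -0.14 for the members and -0.05 for all genes. With upper-quartile scaling these medians were -0.28 and -0.19, and 3367 genes were higher and 5525 lower where TMM gave 4248 and 4456, so small fold changes are relative to the scaling.

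Hist1h2bc had 24.8, 24.2, 23 and 23.8 CPM in 5 months SYN and 10.9, 13.8, 14 and 18.9 CPM in TH. On the TMM scale every SYN library was above every TH library, with a log2 fold change of 0.74 (SE 0.144, edgeR adjusted p = 0.000608). Hist2h2be had 4.47, 3.29, 2.94 and 3.17 CPM in SYN and 1.2, 1.51, 1.88 and 1.76 CPM in TH. Its groups also stood apart on that scale, with a log2 fold change of 1.13 (SE 0.306, edgeR adjusted p = 0.00661). The TMM factors were 0.762 to 0.98 in 5 months SYN and 1.55 to 1.63 in TH, so both orders are relative to that scaling. Plain total counts turned the order of the summed H2B means (33.8 CPM in SYN, 42.4 CPM in TH), and single genes were not tested that way.

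Hist1h1c was the 1 H1 gene called, with 20.3, 19.9, 23.1 and 26.2 CPM in SYN and 13.8, 15.3, 16.8 and 14.2 CPM in TH. On the TMM scale the groups did not overlap, and the log2 fold change was 0.59 (SE 0.128, edgeR adjusted p = 0.00138). With plain total counts the summed H1 means were 57.1 CPM in SYN and 87.2 CPM in TH. Hist1h1e, the most abundant member, had 46.2, 38.3, 31.8 and 24 CPM in SYN and 30.6, 29.2, 37.2 and 29.8 CPM in TH. Its SYN libraries spread across the TH range, and the log2 fold change was 0.15 (interval of 2 SE, -0.18 to 0.48). Hist1h1d (0.04, interval -0.50 to 0.59) changed sign under 7 of 16 alternatives and was called under none of them. Whether Hist1h1c and the other H1 genes differ from each other in this contrast was not tested.

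The H2A calls were less firm. Hist2h2aa2 (chr3:96239749-96240276) had 1.26, 2.24, 1.39 and 2.33 CPM in SYN and 1.26, 0.756, 0.73 and 0.598 CPM in TH. The lowest SYN and the highest TH library were both at 1.26 CPM, and the gene had a log2 fold change of 1.14 (SE 0.443, edgeR adjusted p = 0.0436). The call was lost in 9 of 16 alternatives (adjusted p up to 0.125), namely DESeq2 size factors, upper-quartile scaling, no filter, the replicate block (adjusted p = 0.119) and the leaving out of SYN replicate 2 or 4 or TH replicate 2, 3 or 4 (adjusted p from 0.0837 to 0.125). No coding window of this gene is its own (0%), since its coding sequence is identical to that of Hist2h2aa1, which had no counts. The genes AC125099.2 and Gm20632 overlap Hist2h2aa2 on the opposite strand, and their part in its counts was not tested. Hist3h2a (chr11:58954685-58956830) had 3.45, 1.65, 0.734 and 1.26 CPM in SYN and 3.93, 3.56, 3.76 and 4.08 CPM in TH. All SYN libraries were below TH, replicate 1 only slightly, and the log2 fold change was -1.11 (SE 0.381, edgeR adjusted p = 0.0249). That call was lost in 5 of 16 alternatives, those without SYN replicate 2 or 3 or TH replicate 1, 3 or 4 (adjusted p from 0.0506 to 0.0553), and the log2 fold change ran from -1.64 to -0.87. The gene Trim17 overlaps it on the same strand and had means of 4.05 CPM in SYN and 4.06 CPM in TH. Its neighbour Hist3h2ba had 0.993 ± 0.275 CPM in SYN and 1.86 ± 0.307 CPM in TH, without overlap but short of the threshold (log2 fold change -0.89, edgeR adjusted p = 0.0707).

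**Figure D5:**
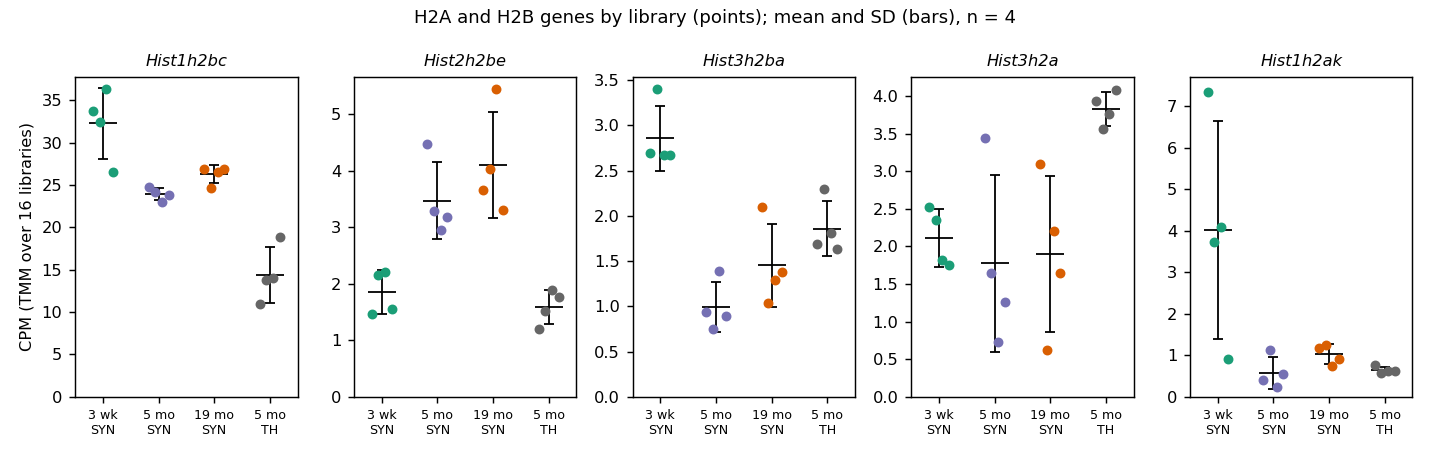
CPM of 5 H2A and H2B genes (vertical, separate scale per panel, from 0) in 4 groups of 4 libraries (points), with mean and SD (bars). On the TMM scale Hist1h2bc and Hist2h2be are higher in 5 months SYN than in TH in every library, and Hist1h2ak at 3 weeks spans 0.915 to 7.34 CPM.

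Of the abundant core genes 4 were not called, and their intervals of 2 SE all included 0. Hist1h4d had a log2 fold change of -0.25 (-0.63 to 0.13), Hist1h4h of -0.15 (-0.60 to 0.30) and Hist2h2ac of -0.06 (-0.50 to 0.37). For Hist2h2ac, SYN had 8.48, 10.8, 5.46 and 7.77 CPM and TH 7.32, 10.1, 10.2 and 6.61 CPM, with overlapping groups. Hist1h4c had SYN levels of 2.67, 6.06, 2.04 and 4.36 CPM and TH levels of 4.2, 6.8, 6.3 and 5.01 CPM. With all libraries its log2 fold change was -0.55 (-1.15 to 0.06, edgeR adjusted p = 0.151), and it was called in 1 of 16 alternatives, without SYN replicate 2 (-0.85, edgeR adjusted p = 0.0332). Of the 7 tested H4 genes, 1 had a log2 fold change above 0.

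The list of replacement histones had 4 of 12 genes higher in SYN (33.3%) and 0 lower (median log2 fold change 0.21). Over all genes tested 24.5% were higher and 50.1% were called in either direction. Like those of the members, these fold changes and CPM are relative to the TMM scaling, and the order with plain total counts was not tested. H1f0 had 40.3 ± 1.07 CPM in 5 months SYN against 25.6 ± 1.43 CPM in TH (log2 fold change of 0.67 with an SE of 0.0879, edgeR adjusted p = 1.87e-05). H2afv, an H2A.Z gene, had 0.78, H2afj, an H2A variant gene, 0.77 and H2afx 0.41, the last losing its call in 10 of 16 alternatives (adjusted p up to 0.141). Of the S phase and mitosis list 1 of 16 genes was called, Tyms, a thymidylate synthase gene, lower in SYN, and the list summed to 42.2 to 47.9 CPM in SYN and 44.4 to 49 CPM in TH. Tyms had 0, 0, 13 and 0 counts in SYN and 36, 44, 55 and 48 in TH, so its log2 fold change (-2.83) moved to -8.23 without SYN replicate 3. Its call was lost in 3 of 16 alternatives, the DESeq2 Wald test (adjusted p = 0.143) and edgeR without TH replicate 1 (0.0521) or 3 (0.0606). Among histone mRNA decay genes 2 were higher and 4 lower of 9. The lower ones included the exonuclease Eri1, which trims histone mRNA ends (log2 fold change -0.91, edgeR adjusted p = 0.000778), Xrn1 (-0.59) and Zcchc11 (-0.50), and Dcp2 was higher (0.37).
For 3′-end processing 3 genes were higher and 3 lower of 16. Cstf2, which binds downstream of cleavage sites, had -0.74 and its paralogue Cstf2t 0.34, the scaffold Sympk 0.54 and Cpsf1 -0.66. Of 18 tested chaperones 3 were higher and 5 lower, with Anp32e at 1.02 and Nap1l1, a carrier of H2A and H2B, at -0.95.

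Markers of other cell types differed between these fractions in the same samples. All 10 endothelial markers were lower in SYN (median log2 fold change -3.27), summing to 149 to 233 CPM in TH and 13.8 to 43.6 CPM in SYN, the highest of these being replicate 4. All 10 microglial markers were higher (median 1.27), summing to 109 to 117 CPM in TH and 225 to 270 CPM in SYN. On the TMM scale oligodendrocyte precursor markers had 7 of 10 genes higher and 0 lower (median 0.60). They summed to 104 to 119 CPM in TH and 174 to 192 CPM in SYN. With TMM factors of 0.762 to 0.98 in 5 months SYN and 1.55 to 1.63 in TH, this order is relative to that scaling. Sums of the marker lists with plain total counts were not compared. All 8 nuclear noncoding RNAs were lower in SYN (median -2.62). The part of these cells and of nuclear RNA in the histone values was not tested.

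Between 19 months and 5 months SYN no member was called of the 30 tested (edgeR), and DESeq2 also called 0, with 21 members left without an adjusted p. The background was low, with 0.3% of all genes called, 0.13% higher and 0.169% lower. At an unadjusted p under 0.05 there were 4 members: Hist1h4d, Hist2h2ac, Hist1h4c and Hist1h1b. Groups overlapped in all 30, against 8.06% of all genes without overlap. Hist1h4d had 14.6, 18.2, 14.2 and 16.7 CPM at 19 months against 13.7, 14.7, 7.83 and 10.3 CPM at 5 months (log2 fold change 0.45, interval 0.11 to 0.79, edgeR adjusted p = 0.233). Hist1h4c had 5.01, 6.03, 6.64 and 6.79 CPM at 19 months (0.67, interval 0.12 to 1.23, edgeR adjusted p = 0.266). All 7 tested H4 genes had a log2 fold change above 0 (0.05 to 0.79), none of them called, and the median over the 30 members was 0.28 and over all genes 0.

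For 2 H1 genes and Hist1h2bc the intervals bound any difference between 19 and 5 months. Hist1h1e had 47.2, 38.9, 36.1 and 29.4 CPM, with a log2 fold change of 0.11 against 5 months (interval of 2 SE, -0.26 to 0.47). Hist1h1c had 19.8, 20.2, 22.8 and 17.4 CPM and a log2 fold change of -0.17 (-0.43 to 0.08), and Hist1h2bc 26.9, 24.7, 26.6 and 26.9 CPM and 0.12 (-0.11 to 0.35). For these 3 genes a change as large as that from 3 weeks to 5 months lies outside the interval. Hist1h1b had 1.09, 0.901, 1.57 and 1.65 CPM and the widest interval of the 5 (0.02 to 1.76, log2 fold change 0.89). Of the other lists, 1 microglial gene, C1qb, was called between these ages, higher at 19 months (log2 fold change 0.77, edgeR adjusted p = 0.0279), and it lost the call when any 1 of 7 libraries was left out.

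Against 3 weeks, 19 months SYN had 6 members lower and 1 higher of 30 (20% lower), beside 9.44% of all genes lower, 10% higher and 19.4% in either direction. Groups did not overlap in 8 members, against 22.9% of all genes. This comparison shares its 3 weeks libraries with that of 5 months and is no separate evidence. The 5 H1 genes were again all lower: Hist1h1d by a log2 fold change of -1.30 (edgeR adjusted p = 0.000154), Hist1h1c by -0.70 (0.000229), Hist1h1a by -1.37 (0.00202), Hist1h1e by -0.75 (0.0065) and Hist1h1b by -1.36 (0.0134). Hist1h2ak, with 0.738 to 1.25 CPM at 19 months, had -1.94 (edgeR adjusted p = 0.00459), and its groups overlapped through 3 weeks replicate 4. Hist2h2be, with 3.65, 4.02, 5.44 and 3.3 CPM, was higher by 1.14 (SE 0.283, edgeR adjusted p = 0.0046), and this call was kept in 22 of 22 alternatives.

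Members called at 5 months but not at 19 months, both against 3 weeks, were Hist3h2ba (log2 fold change -0.98, edgeR adjusted p = 0.0582 at 19 months) and Hist1h2bc (-0.29, 0.0677). Neither differed past the threshold between 19 and 5 months, so these ages are not shown to differ for them. Hist1h4c had 4.57, 2.61, 3.63 and 3.87 CPM at 3 weeks, below all 19 months libraries, and a log2 fold change of 0.75 (edgeR adjusted p = 0.0562). It passed the threshold in some alternatives, for example with the DESeq2 Wald test (adjusted p = 0.045). Hist1h4d (0.29), Hist1h4h (0.53) and Hist2h2ac (-0.18) were not called.

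The lists at 19 months against 3 weeks had 6 of 11 replacement histones lower and 0 higher, led by H1f0 (-0.55, edgeR adjusted p = 0.000512) and H2afy2, a macroH2A gene (-0.83, 0.0017). Of 17 replication and mitosis genes 6 were lower and 0 higher, among them Mki67 (-2.43) and Top2a (-2.97). The other 11 were not called, and the share lower was 35.3%, beside 9.44% of all genes. Oligodendrocyte precursor markers had 6 of 10 lower and 0 higher, and microglial markers 6 of 10 higher and 0 lower. Of 18 chaperones 3 were lower, Nasp, an H3 and H4 carrier (-1.10, edgeR adjusted p = 2.45e-05), Atrx (-0.30) and Chaf1a, a subunit of the replication-coupled assembly factor CAF-1 (-0.78, 0.0444), while Ubn2 was higher (0.41). The Chaf1a call was lost in 11 of 22 alternatives (edgeR adjusted p up to 0.132), and that of Atrx without 3 weeks replicate 1 or 19 months replicate 3 (0.0503 and 0.057). Lsm11 was lower (-1.11, edgeR adjusted p = 8.53e-05), and SLBP's own gene Slbp, at 7.52 to 10.5 CPM at 3 weeks, 6.28 to 15.3 CPM at 5 months and 6.09 to 9.77 CPM at 19 months, overlapped between all ages. The value of 15.3 CPM belonged to 5 months replicate 4, the library high in Malat1.

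No histone member was listed in any of the authors' 6 deposited tables of splicing differences between ages.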

How the data were processed

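The deposited counts are the authors' whole-number counts per gene for 16 libraries, and the column names identified the samples. Per the submitters' processing notes, the tools named were bcl2fastq 2.20.0.422, cutadapt 1.18, Trimmomatic 0.38 and featureCounts of Subread, with the genome build GRCm38.p6. The sources used here give no aligner, strand setting or annotation release, and the count columns carry the word unique, so reads that fit several near-identical genes may have been dropped, and genes on opposite strands may share counts. Names of the SYN and TH columns with the same replicate number also share a sample number, whose meaning the labels do not state. All 20 H2A members overlap a gene on the opposite strand. The authors' deposited splicing tables give p-values and q-values per junction or cluster and were searched for members by name only.

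Members and lists were chosen with earlier results of these data known. Genes were filtered with filterByExpr, scaled by TMM and tested with the quasi-likelihood test of edgeR 4.0.16 (R 4.3.3) on all genes, with Benjamini-Hochberg adjustment over all genes tested. The fraction comparison used its 8 libraries and the age comparisons all 12 SYN libraries, so fold changes carry the scaling of their fit, while CPM per library use TMM over all 16. Intervals are 2 SE on each side. Named genes were, per comparison, every called member, the 4 most abundant uncalled members, the 8 members highest per kilobase, and up to 4 called genes per list, and the text gives a choice of these. Hist1h2be, Hist3h2ba, Hist1h4c, Hist1h1d, Slbp and Syp are also given where the rule did not name them, after their values were seen. Coordinates of genes are those of the count table. Sequences came from GENCODE vM21 transcripts and RefSeq promoters, read with Python 3.11.15 and pandas 2.3.3, and figures were drawn with matplotlib 3.10.9. Of the members, 44 of 67 had the same exon length in vM21 as in the count table.

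Depth was 10640232 to 21719869 counts per library. On simulated counts with 100 genes changed by 1 log2 unit, 70% were recovered for SYN against TH and 79% for 5 months against 3 weeks. Of genes changed by 0.5, 33% and 38% were recovered. False calls numbered 9 and 2. The changed genes were drawn above a minimum mean count and were few among the 16922 and 15055 genes in these fits. The rates therefore do not hold for members with few counts or for the larger shares of genes called in the real data. No libraries were identical, and replicates correlated at 0.977 to 0.993. Alternatives were other scalings, DESeq2 1.42.0, other filters, mitochondrial genes removed, a replicate block, other sets of libraries and each library left out.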

Additional observations from a re-analysis of the deposited data

Results flagged for a closer look

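In 64 groups of 4 libraries examined over the named members, 5 had 1 library far from the other 3, where chance gives about 1 in 20. At 3 weeks, Hist1h1a was at 6.41 CPM in replicate 3 and 4.73 to 4.84 CPM in the others, Hist2h2ac at 9.22 CPM in replicate 1 and 4.88 to 5.42 CPM in the others, and Hist3h2ba at 3.4 CPM in replicate 2 and 2.67 to 2.69 CPM in the others. At 19 months, Hist1h2bc was at 24.7 CPM in replicate 2 against 26.6 to 26.9 CPM, and Hist1h2be at 2.58 CPM in replicate 3 against 4.68 to 5.06 CPM. Without 3 weeks replicate 1, Hist2h2ac was called higher at 5 months (log2 fold change 0.68, edgeR adjusted p = 0.0345), where it is 0.43 and uncalled with all libraries. The calls of Hist1h1a and Hist3h2ba at 5 months against 3 weeks were kept in 22 of 22 alternatives each.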

How the results depend on the processing

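The counts of members higher in SYN than in TH (3 to 5 when a library was left out), lower at 5 months (8 to 10) and lower at 19 months against 3 weeks (6 to 8) stayed within 1.5 times the main count in every alternative run, and no alternative called a member between 19 and 5 months. Members lower in SYN than in TH numbered 2 with upper-quartile scaling, the DESeq2 Wald test or all 16 libraries, and 0 to 1 with a library left out. Members higher at 19 months against 3 weeks numbered 2 with upper-quartile scaling, the DESeq2 Wald test, no filter, only the 8 libraries compared or both libraries that stand apart left out (1 to 2 with 1 library left out), the added gene being Hist1h4c or Hist1h4h. Members higher at 5 months against 3 weeks numbered 0 to 1. Summed CPM at 3 weeks, 5 months SYN, 19 months and TH were 174, 131, 153 and 216 from total counts, and 161, 114, 127 and 105 without the highest member. The first puts TH above SYN, and the second shows how much Hist1h1e alone contributes. Other causes of these shifts were not tested.

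Sign changes occurred in uncalled genes. For SYN against TH, Hist1h1d turned to -0.02 with DESeq2 size factors and with the DESeq2 Wald test, -0.10 with upper-quartile scaling, -0.01 with the replicate block, and ran from -0.29 to 0.19 with a library left out. With a library left out in the same contrast, Hist1h1e ran from -0.01 to 0.28 and Hist2h2ac from -0.23 to 0.08. At 5 months against 3 weeks the ranges were -0.24 to 0.27 for Hist1h4c and -0.04 to 0.38 for Hist1h2be. Without both libraries that stand apart these 2 genes gave -0.01 and -0.04, and Hist1h1e at 19 against 5 months -0.16. With 1 library left out at 19 against 5 months, Hist1h1e ran from -0.04 to 0.27 and Hist1h1d from 0.00 to 0.52, and Hist2h2ac at 19 months against 3 weeks ran from -0.28 to 0.08.

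The replicate block gave 3 members higher and 1 lower in SYN, 1 and 8 at 5 months, 0 and 0 at 19 against 5 months, and 1 and 6 at 19 months against 3 weeks, and it removed the Hist2h2aa2 call (adjusted p = 0.119, edgeR). Deviations of same-numbered SYN and TH libraries correlated at 0.136, 0.0288, 0.0378 and 0.182 in replicates 1 to 4. The highest correlations of the same SYN libraries with other-numbered TH libraries were 0.0476, 0.0935, 0.0167 and -0.0783. The main test used no replicate block, and the ages share replicate numbers alone. Depth limits what can be said of the 36 members that were never tested.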

Other observations

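Hist1h2af, an H2A gene at chr13:23533906-23534304, did not pass the filter on low counts and was picked out after its values were seen. It had 52, 21, 9 and 58 counts in the 3 weeks libraries, 2, 0, 0 and 0 at 5 months, 0, 5, 1 and 0 at 19 months, and 2, 0, 0 and 1 in TH. Without the filter its log2 fold change was -5.79 at 5 months against 3 weeks (edgeR adjusted p = 9.1e-10) and -4.28 at 19 months (4.61e-07), sizes that depend on how few counts the later ages hold. Of its coding windows 20.1% occur in no other gene.

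The H4 genes outside the name rule were also looked at after their values were seen. Hist2h4 had 2.94, 4.45, 2.89 and 4.36 CPM at 3 weeks, 9.5, 5.68, 3.91 and 5.26 CPM at 5 months, 4.56, 7.9, 4.8 and 5.6 CPM at 19 months, and 5.08 to 8.78 CPM in TH. Hist4h4 had 1.02 to 1.48 CPM at 3 weeks, 0.408 to 1.72 CPM at 5 months, 1.66 to 2.37 CPM at 19 months and 1.36 to 2.53 CPM in TH.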
